A study of Arabidopsis thaliana with 18 samples.

Results

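A set of 22 Arabidopsis genes was read at 5 CPM (reads of the gene per 1000000 counts of the library) or more after 10 days on trichostatin A (TSA) and at almost nothing without it. The members were chosen by their counts. A gene was taken when its mean was at least 5 CPM in explants cultured for 10 days on TSA and at most 0.5 CPM in each of the 4 groups cultured without TSA. Of 34218 genes listed, 32548 carried nuclear locus codes, 14912 of these reached 5 CPM in the 10-day TSA group, and 22 met the whole rule. The levels in those 5 groups are therefore a description and carry no test, while the explants cultured on TSA for 5 days were not used by the rule. The same rule turned round, high after 10 days on 2,4-D and low on TSA and on the control medium, found 12 genes.

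The explants were immature zygotic embryos of the Columbia-0 (Col-0) genotype at the cotyledonary stage, all grown on the same basal medium. ET medium added 1 µM TSA, EA medium added 5 µM of the synthetic auxin 2,4-D, and E0 medium, which added nothing, let the embryos grow into seedlings. Explants were sampled after 10 or 5 days on each medium, with 3 biological replicates (a, b and c) in each of the 6 groups, written here as ET 10 d, ET 5 d, EA 10 d, EA 5 d, E0 10 d and E0 5 d. Each library pooled the RNA of many whole explants, so that fewer cells of a type and less RNA per cell cannot be told apart in any value below. Library totals ranged from 9098758 to 58364735 counts. The shallowest group was E0 5 d, where 2 libraries held 9098758 and 10679746 counts, and the ET 10 d libraries held 11582222 to 56300290.

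Histone acetyltransferases place acetyl groups on histone tails and histone deacetylases remove them, and acetylated chromatin is in general more open to transcription. TSA blocks the zinc-dependent deacetylases. In Arabidopsis these enzymes help to keep genes of seed and embryo development silent once the seedling starts to grow, and both TSA and 2,4-D lead immature embryos to form somatic embryos. The question addressed by the set is which genes were at most at trace level on both other media and were read on TSA.

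All 22 members are protein-coding genes of the reference annotation (TAIR10.1), and 12 of them carry no symbol beyond the locus code. By their annotation no family holds 3 or more of them, and there are pairs: AT5G56369 and LCR62 encode small cysteine-rich, defensin-like peptides, and JAL23 and MBP2 encode jacalin-type lectins. Nuclear regulators are PKR2, a CHD3-type chromatin remodeller related to PICKLE, GATA29, a GATA zinc finger factor, TT16, a MADS-box factor of the seed coat endothelium, AT1G28630, annotated as an EFH1-like transcriptional regulator, and AT1G64800, annotated as DNA binding. Signalling is represented by BSU1, a phosphatase of the brassinosteroid pathway, by the protein kinase AT1G23700 and by AT2G22942, annotated as a growth factor. The others are enzymes, transport proteins and secreted proteins. They include TPS4 of trehalose 6-phosphate metabolism, the cytochrome P450 CYP76G1, the WSD1-like acyltransferase AT1G72110, the vacuolar protease DELTA-VPE and the pectin methylesterase inhibitor family protein AT3G12880.

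The members were spread over the genome, with 6 on chromosome 1, 3 on chromosome 2, 5 on chromosome 3, 3 on chromosome 4 and 5 on chromosome 5, and the closest pair, DELTA-VPE and GATA29, lay 200 kb apart. Their exon length had a median of 1544 bp, against 1552 bp for the 27444 nuclear protein-coding genes of the count file. The median exon GC content was 40.9%, against 41.1%. No exon stretch of 76 bp or more with at least 95% identity occurred elsewhere in the genome for any member. DELTA-VPE is the exception in annotation, since an antisense gene covers 12.5% of its exon bases, and without a stated strand setting the reads of that stretch cannot be assigned.

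The 250 bases upstream of each annotated start were read from the TAIR10.1 genome and searched on both strands for 5 short motifs. The MYB core TAACGG lay in 4 of 22 members (18.2%), against 6.02% of 27438 nuclear protein-coding genes, and the RY repeat CATGCA in 3 of 22 (13.6%), against 8.43%. The G-box CACGTG was in 0 of 22 (6.49% of all genes), the telo-box AAACCCT in 1, TT16 (4.55%, against 7.33%), and the TATA box letters TATAAA in 11 (50%, against 47.4%). A match is a run of letters and not a known site. The upstream sequence of AT5G56369 is shown because it is the member with the highest level, and those of 4 others because they hold the MYB core, the only one of the 5 motifs found at over 2 times its share among all genes. Capitals mark the MYB core (TAACGG, or CCGTTA on the other strand) and the TATA box letters (TATAAA or TTTATA). They lie at chr5:22835142-22835391 on the plus strand (AT5G56369), chr4:15431100-15431349 on the plus strand (PKR2), chr3:4095164-4095413 on the plus strand (AT3G12880), chr5:7433540-7433789 on the plus strand (AT5G22430) and chr3:19643283-19643532 on the minus strand (CYP76G1), and each ends at the base before the annotated start.
AT5G56369: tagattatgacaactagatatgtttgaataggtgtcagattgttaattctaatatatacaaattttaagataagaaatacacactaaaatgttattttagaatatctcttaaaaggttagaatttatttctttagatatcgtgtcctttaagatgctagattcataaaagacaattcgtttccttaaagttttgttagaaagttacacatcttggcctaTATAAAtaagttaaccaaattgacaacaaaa
PKR2: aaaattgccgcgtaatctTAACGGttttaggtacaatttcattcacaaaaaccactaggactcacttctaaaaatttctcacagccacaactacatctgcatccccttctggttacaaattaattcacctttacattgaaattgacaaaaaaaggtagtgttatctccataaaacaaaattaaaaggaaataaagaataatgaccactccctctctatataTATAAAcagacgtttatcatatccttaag
AT3G12880: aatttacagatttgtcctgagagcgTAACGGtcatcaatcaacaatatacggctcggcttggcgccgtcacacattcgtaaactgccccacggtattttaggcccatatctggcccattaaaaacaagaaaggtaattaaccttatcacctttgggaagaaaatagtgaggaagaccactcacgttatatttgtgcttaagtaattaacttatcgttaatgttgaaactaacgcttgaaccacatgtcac
AT5G22430: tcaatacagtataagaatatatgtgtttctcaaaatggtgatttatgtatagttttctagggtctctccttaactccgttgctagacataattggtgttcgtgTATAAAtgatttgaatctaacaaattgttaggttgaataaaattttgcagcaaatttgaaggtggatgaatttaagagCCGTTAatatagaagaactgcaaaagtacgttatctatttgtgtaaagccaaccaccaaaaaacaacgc
CYP76G1: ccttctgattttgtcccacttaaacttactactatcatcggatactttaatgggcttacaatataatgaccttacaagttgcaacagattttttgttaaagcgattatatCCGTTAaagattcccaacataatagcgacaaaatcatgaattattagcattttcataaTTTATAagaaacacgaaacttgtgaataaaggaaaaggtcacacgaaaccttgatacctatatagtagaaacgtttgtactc

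The mean level of the members in ET 10 d ran from 5.04 to 107 CPM with a median of 11.1 CPM. AT5G56369 was far above the rest, and its values were 137, 96.5 and 87.7 CPM in the ET 10 d libraries. It supplied 36.1, 30.3 and 27.1% of the summed CPM of the 22 genes in libraries a, b and c. Per kilobase of exon, it stood at 242 CPM per kb, followed by AT5G28000, a lipid transport superfamily protein, at 27.4, AT2G22942 at 26.2 and LCR62 at 21.3. The lowest level per length was 2.71 CPM per kb, in MBP2. Even the most strongly read chromatin gene, PKR2, had a moderate level per length of 4.78 CPM per kb.

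**Figure D1:**
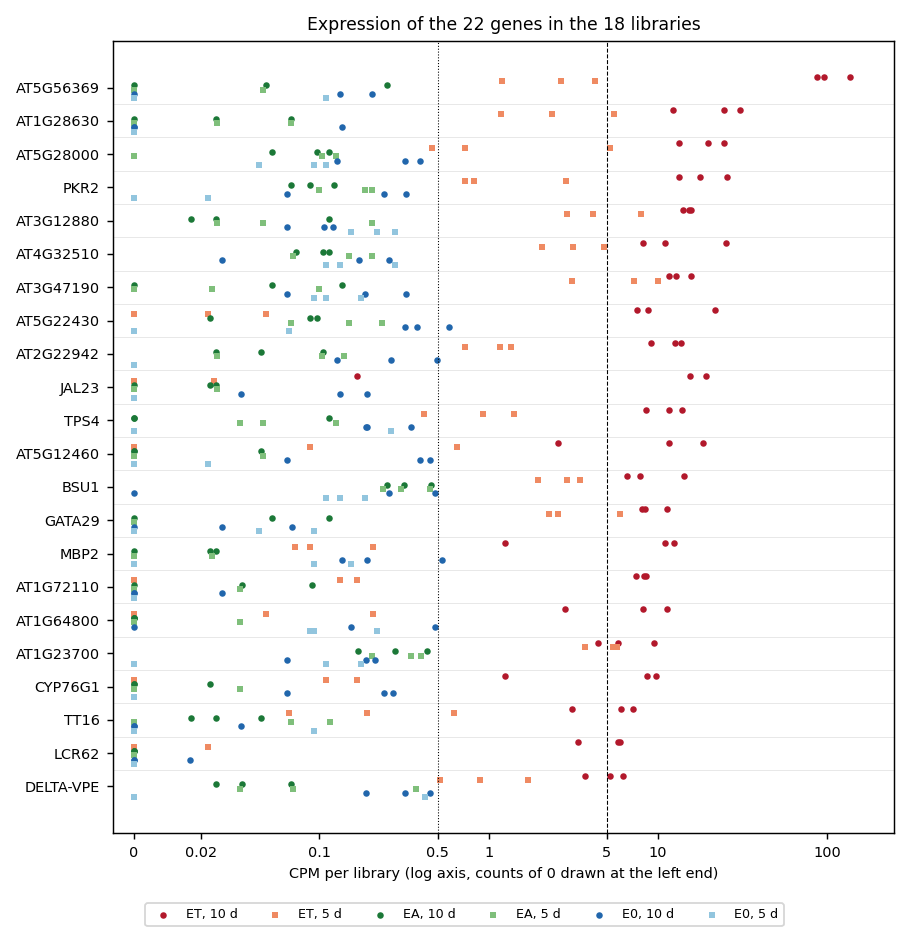
CPM (horizontal log axis, counts of 0 at the left end) of the 22 genes (rows, ordered by their ET 10 d mean) in the 18 libraries, 1 point per library, with dotted and dashed lines at the 0.5 and 5 CPM limits that the rule set on group means. The limits bind the means and not the single points: the ET 10 d point of library b lies left of the dashed line for AT1G64800, AT5G12460, MBP2 and CYP76G1 and left of the dotted line for JAL23 (0.167 CPM), and E0 10 d library a lies right of the dotted line for AT5G22430 (0.586 CPM) and MBP2 (0.533 CPM). The ET 5 d points spread between 0 and 10 CPM.

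The other media were not free of these transcripts, and all 22 members had at least 1 count in the 12 EA and E0 libraries together. LCR62 came closest to silence, with 1 count in 1 of those 12 libraries. AT3G12880 and AT4G32510, an HCO3- transporter family protein, had counts in every one of them. The traces were highest in E0 10 d for 15 of 22 members, and the summed member level there was 5.25, 2.12 and 4.49 CPM in libraries a, b and c. The sums lay between 1.1 and 2.16 CPM in the 9 other libraries without TSA. For comparison, the sums were 379, 319 and 324 CPM in ET 10 d and 54.3, 28.1 and 37.4 CPM in ET 5 d. Among the members whose trace was highest elsewhere, BSU1 had a mean of 0.34 CPM in EA 10 d and AT1G23700 had 0.317 CPM in EA 5 d.

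The members nearest to the limits were TT16 (5.44 CPM in ET 10 d), LCR62 (5.05 CPM) and DELTA-VPE (5.04 CPM). The genes just below 5 CPM that were low on the other media were NAC005 (4.97 CPM), AT3G28500 (4.96 CPM) and SKS2 (4.63 CPM). At the other limit, AT5G22430 (0.428 CPM), BSU1 (0.34 CPM) and DELTA-VPE (0.321 CPM) had the highest mean of any group without TSA among the members. YUC10 at 0.547 CPM, GLIP6 at 0.587 CPM and AT3G03230 at 0.612 CPM fell just outside, although YUC10, an enzyme of auxin synthesis, averaged 50.7 CPM in ET 10 d. The size of the set follows from where the limits were put: 12 genes met a limit of 10 CPM in ET 10 d, and 14 a limit of 0.25 CPM on the other media.

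On day 5 of TSA culture the members fell into 2 kinds. In 13 of 22 the ET 5 d mean was above 0.5 CPM, and in 9 it was at most 0.5 CPM, the limit that the rule set for the groups without TSA. Of the 22 members, 13 had every ET 5 d library above every E0 5 d library (24% of all genes tested). Against EA 5 d this order was met by 14 (16.4% of all genes). The 13 were those over 0.5 CPM in ET 5 d, so that this split and the rule nearly fixed their order, and nothing is read from it. The test of ET 5 d against E0 5 d (edgeR quasi-likelihood test over all 18 libraries, Benjamini-Hochberg adjustment over 23539 genes, adjusted p under 0.05) called 15 of the 21 members that passed edgeR's filter on low counts higher. None was called lower by edgeR or DESeq2, and 0 were lower at an unadjusted p under 0.05. Over all genes tested 23.8% were called higher in that comparison. Against EA 5 d 15 of 21 were called higher, with 20.1% of all genes. In that comparison 1 (AT5G22430) was lower at an unadjusted p under 0.05 and none after adjustment by either tool. The median fitted log2 fold change of the 21 members was 4.66 against E0 5 d and 3.87 against EA 5 d. The low side of both comparisons was fixed by the rule, both use the same ET 5 d libraries, and JAL23 did not pass the filter. The filter also took in the TSA group that the rule required to be high, so that passing it was partly fixed as well. In fits of only the 6 libraries compared, 13 members passed the filter. Of these 13, 12 were called higher against E0 5 d and 13 against EA 5 d. For these reasons nothing is read from setting the members' calls beside the shares of all genes.

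**Figure D2:**
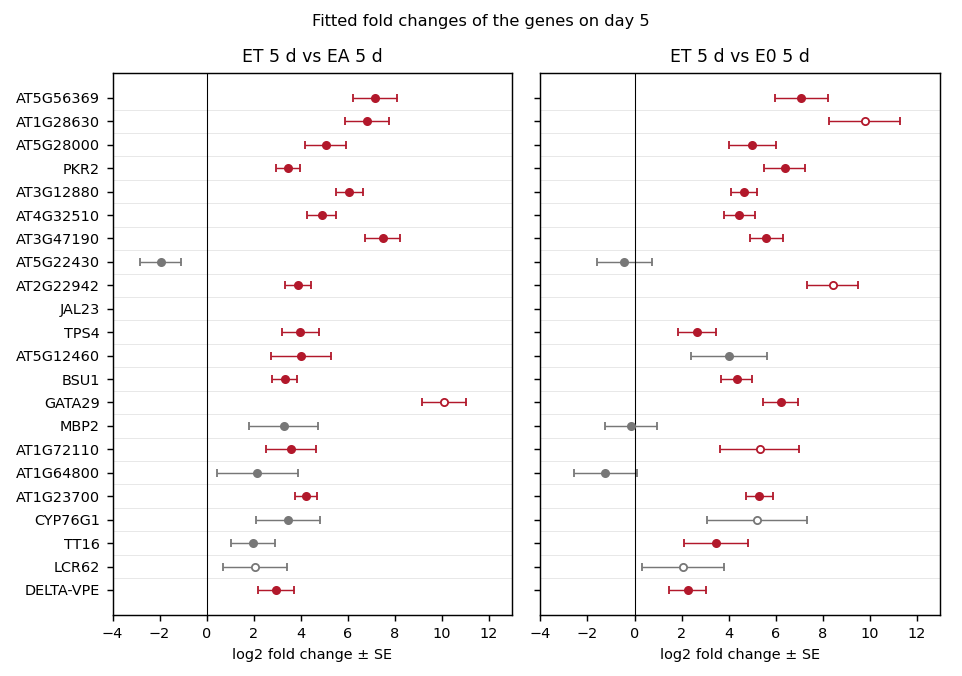
Fitted log2 fold change ± SE (horizontal) of each member (rows) in ET 5 d against EA 5 d (left) and against E0 5 d (right), in red where the adjusted p was under 0.05 and grey where it was not, with open circles where the libraries without TSA held no count, so that the value depends on the fit. JAL23 was not tested, 15 genes are red in each panel, and AT5G22430 lies below 0 in both.

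The kinase gene AT1G23700 was the member with the most even level over the 2 times. It had 5.78, 9.55 and 4.46 CPM in the ET 10 d libraries and 5.77, 3.73 and 5.43 CPM in the ET 5 d libraries. The groups overlapped, and this was the sole member in which they did. Its day-5 level was higher than in E0 5 d by a log2 fold change of 5.31 ± 0.57 (SE, edgeR adjusted p = 1.83e-06; 6.61 without E0 5 d library a) and than in EA 5 d by 4.22 ± 0.47 (adjusted p = 4.76e-06).

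AT3G47190, a 2-oxoglutarate and Fe(II)-dependent oxygenase, had the highest day-5 level of the set. It stood at 11.7, 12.8 and 15.6 CPM in ET 10 d and at 7.28, 3.11 and 10 CPM in ET 5 d. It was higher in ET 5 d than in E0 5 d by 5.60 ± 0.70 on the log2 scale (SE, edgeR adjusted p = 8.40e-06). AT3G12880 had nearly equal ET 10 d values of 15.7, 15.3 and 14.1 CPM, and 7.96, 4.14 and 2.92 CPM in ET 5 d. Its log2 fold change in ET 5 d was 4.66 ± 0.55 against E0 5 d (adjusted p = 5.38e-06). Both genes were thus read at several CPM from day 5, and their ET 10 d means were 1.97 and 3 times their ET 5 d means.

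GATA29 had 8.03, 11.3 and 8.37 CPM in ET 10 d and 6.01, 2.28 and 2.58 CPM in ET 5 d. No count of it was found in the 3 EA 5 d libraries, which makes it at least 151-fold higher in ET 5 d against a floor of 3 counts over the group. BSU1 had 6.56, 14.2 and 7.82 CPM in ET 10 d and 3.46, 1.97 and 2.92 CPM in ET 5 d. It was higher in ET 5 d than in E0 5 d by a log2 fold change of 4.34 ± 0.65 (SE, edgeR adjusted p = 4.92e-05), a ratio of 22.1 (95% counting interval 11.5 to 48.9). AT4G32510 had 11.1, 25.3 and 8.21 CPM in ET 10 d and 3.15, 2.07 and 4.82 CPM in ET 5 d. In these 3 genes, as in 21 of the 22 members, the lowest ET 10 d library lay above the highest ET 5 d library (18.5% of all genes). Nothing is read from this order, since the rule required ET 10 d to be high.

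A larger difference between the times was seen in PKR2. It had 17.8, 13.3 and 25.7 CPM in ET 10 d, against 2.88, 0.725 and 0.817 CPM in ET 5 d, a ratio of means of 12.8. On day 5 it already was higher than in E0 5 d, with 164 counts in the 3 ET 5 d libraries and 1 count in the 3 E0 5 d libraries (log2 fold change 6.38 ± 0.86, SE, edgeR adjusted p = 1.74e-05). With 1 library left out that value ran from 5.54 (without ET 5 d library a) to 8.82 (without E0 5 d library a, which leaves no count in E0 5 d, so that the value depends on the fit), and the call was kept. AT1G28630 had 24.5, 30.6 and 12.3 CPM in ET 10 d and 5.48, 2.38 and 1.19 CPM in ET 5 d. No count fell on it in E0 5 d, so that it was at least 68.6-fold higher in ET 5 d. These 2 nuclear genes had their low ET 5 d values in libraries b and c and their high one in library a. The same library was the highest for 10 of the 13 members over 0.5 CPM in ET 5 d, and library b, the shallowest of the group, was the lowest for 9.

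AT5G28000 had 19.8, 13.3 and 24.5 CPM in ET 10 d and 5.24, 0.725 and 0.464 CPM in ET 5 d. Its day-5 call (log2 fold change 5.01 ± 1.01 against E0 5 d, SE, edgeR adjusted p = 0.000738) thus came from libraries that differed among themselves widely, and without ET 5 d library a the value was 3.15. AT2G22942 had 12.6, 9.13 and 13.8 CPM in ET 10 d and 1.35, 0.725 and 1.17 CPM in ET 5 d, and TPS4 had 13.9, 11.7 and 8.53 CPM in ET 10 d and 1.42, 0.414 and 0.928 CPM in ET 5 d. TPS4 passed the test against E0 5 d with a log2 fold change of 2.66 ± 0.79 (adjusted p = 0.0112). Its 12 counts in E0 5 d were all in library a, and without that library, with no count left in E0 5 d, the fitted value was 8.20 (adjusted p = 0.00491). AT5G56369, the top gene of day 10, had 1.2, 4.25 and 2.69 CPM in ET 5 d, and the ratio of its means was 39.4. Its log2 fold change against E0 5 d was 7.10 ± 1.14 (adjusted p = 9.66e-05). This rests on 1 count in E0 5 d, and the value ran from 5.64 without E0 5 d library a to 9.67 without library c, which held that count.

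The calls of DELTA-VPE, TT16 and AT1G72110 on day 5 depended on single libraries. DELTA-VPE, which takes part in the death of inner seed coat cells, had 3.71, 5.21 and 6.2 CPM in ET 10 d and 1.71, 0.518 and 0.884 CPM in ET 5 d. Its log2 fold change against E0 5 d was 2.26 ± 0.78 (SE, edgeR adjusted p = 0.0268), and the call was lost without E0 5 d library b (adjusted p = 0.077) or c (0.073), without ET 5 d library a (0.103), and in the fit of the 6 libraries (0.0722). All 19 counts of E0 5 d were in library a, and without it the fitted value was 8.33 (adjusted p = 0.00306). TT16 had 6.04, 7.17 and 3.11 CPM in ET 10 d and 0.192, 0.622 and 0.0663 CPM in ET 5 d. Its log2 fold change was 3.47 ± 1.37 (adjusted p = 0.0483), and the call was lost with DESeq2 size factors (0.0557), with library totals (0.0523), with no filter (0.0532), and without E0 5 d library a (0.303) or c (0.0962) or ET 5 d library a (0.0666) or b (0.112). The value was 2.08 without E0 5 d library a and 6.10 without library b. AT1G72110 rested on 13 counts in ET 5 d and none in E0 5 d, at least 2.92-fold higher, and lost its call without E0 5 d library a (adjusted p = 0.124).

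The 6 tested members that did not pass against E0 5 d were AT5G22430, AT5G12460, MBP2, AT1G64800, CYP76G1 and LCR62. LCR62 had 5.78, 5.96 and 3.39 CPM in ET 10 d and a single count over the 3 ET 5 d libraries. The ratio of pooled counts, 421, rests on that count and is a description, since the rule required ET 10 d to be high. AT5G22430, a pollen Ole e 1 family protein, had 7.51, 21.8 and 8.76 CPM in ET 10 d and 3 counts over the ET 5 d libraries, a ratio of 386 that is likewise a description. In ET 5 d it was not above the other media, and its log2 fold change against EA 5 d was -1.96 ± 0.87 (SE, edgeR adjusted p = 0.0883). Both genes were thus read on day 10 and not detectably above the other media on day 5 at this depth. MBP2 had 9 counts in ET 5 d, against 8 counts in E0 5 d (adjusted p = 0.926). Against the 1 count in EA 5 d its libraries did not overlap, with a ratio of 10.5 (95% counting interval 1.45 to 459, adjusted p = 0.0937). AT1G64800 had 4 counts in ET 5 d, against 7 counts in E0 5 d (adjusted p = 0.48) and 1 count in EA 5 d (0.349), and its libraries overlapped with both. AT5G12460, a fringe-like protein, lay close to the limit with 0.649, 0 and 0.0884 CPM in ET 5 d (adjusted p = 0.0505 against E0 5 d and 0.0218 against EA 5 d). Against E0 5 d it passed with a block for the letters (0.0395) and without ET 5 d library b (0.0337) or c (0.0322). Library a held 27 of its 31 counts in ET 5 d. Without that library its log2 fold change fell from 4.02 to 2.13 (adjusted p = 0.398), and without E0 5 d library a the adjusted p was 0.165. CYP76G1 (adjusted p = 0.0592) passed with the block (0.0195) and without ET 5 d library b (0.0498), and was further from a call without ET 5 d library a (0.13).

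Over the whole set the ratio of the ET 10 d mean to the ET 5 d mean ran from 1.33 in AT1G23700 to 1450 in JAL23, with a median of 12.6. In 21 of 22 members every ET 10 d library lay above every ET 5 d library. That order was found in 18.5% of the 23539 genes tested, and nothing is read from it here, since the rule required the ET 10 d level to be high. The ratio for JAL23 rests on 1 count in ET 5 d, and over the pooled counts it was 1156. It is a description only, and no interval is given for it.

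The 3 ET 10 d libraries did not agree for every member. JAL23 had 19.2, 0.167 and 15.5 CPM in libraries a, b and c, so that library b held 0.961% of the mean of the other two. MBP2, a myrosinase-binding lectin, had 12.4, 1.25 and 11.1 CPM, CYP76G1 8.63, 1.25 and 9.82 CPM, and AT5G12460 11.6, 2.58 and 18.4 CPM. AT1G64800 showed the same order with 11.3, 2.83 and 8.13 CPM. In the first 4 of these genes library b was under 0.25 of the level of each of the others, a pattern singled out after the values were seen. Among all 14912 nuclear genes of at least 5 CPM in ET 10 d it was met by 33 (0.221%), by 1 gene (0.00671%) for library a and by 2 (0.0134%) for library c. All 4 were among the 9 members at 0.5 CPM or less in ET 5 d.

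**Figure D3:**
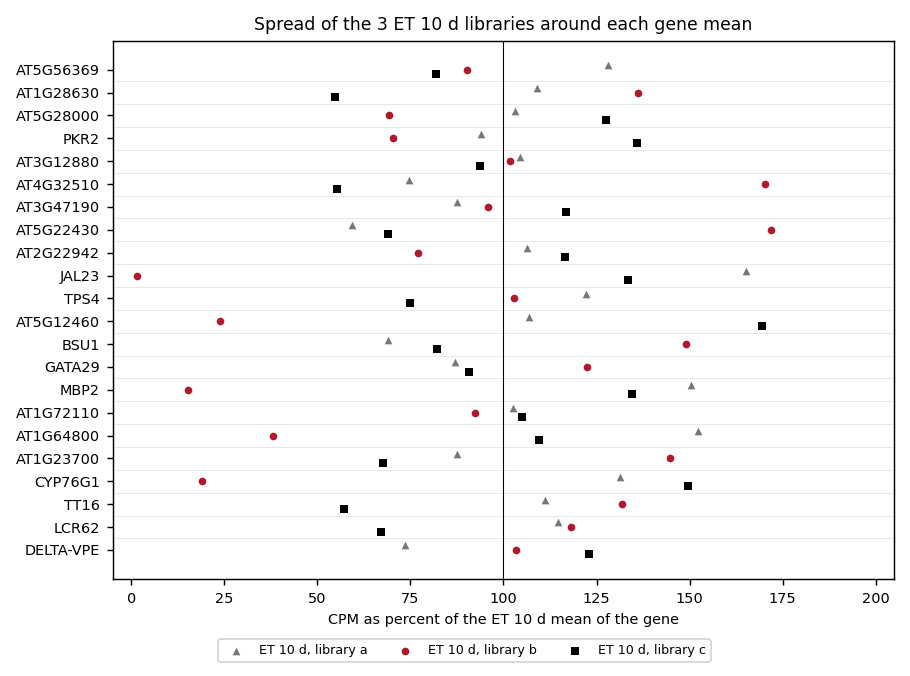
CPM of each ET 10 d library as percent of the mean of the 3 ET 10 d libraries (horizontal), for the 22 genes (rows), with library a as triangles, b as red circles and c as squares. Library b lies far left for JAL23, AT5G12460, MBP2, AT1G64800 and CYP76G1 and far right for AT4G32510 and AT5G22430, while AT3G12880 and AT1G72110 have their 3 libraries close to 100%.

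Library b was also high for some members. It was more than 2 times both other libraries for AT4G32510 and AT5G22430, a pattern met by 48 of the 14912 genes. The coefficient of variation in ET 10 d exceeded 50% in 7 members, from 57.7% in AT1G64800 to 86.8% in JAL23, and was as low as 5.66% in AT3G12880 and 6.75% in AT1G72110. Library b was the middle one of the group in depth, with 23991352 counts, and what made it differ was not tested. Without it 20 genes met the rule, 19 of them members. TT16, LCR62 and DELTA-VPE dropped below 5 CPM, and the mean of JAL23 was 17.3 CPM in place of 11.6 CPM.

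The genes next to the members on the chromosome, which the rule did not choose, were compared between ET 10 d and E0 10 d. Of the 44 neighbours, 1 on either side of each member, 32 passed the filter, 9 were called higher (28.1%, against 18% of all genes) and 6 lower (20% of all genes). Their median log2 fold change was -0.0389. The neighbours of BSU1 were higher on both sides, with AT1G03440 at 17.8 CPM in ET 10 d, against 6.42 CPM in E0 10 d (edgeR adjusted p = 1.20e-05), and AT1G03457 at 27.7 CPM in ET 10 d, against 14 CPM in E0 10 d (adjusted p = 0.00334). Beside PKR2, AT4G31890 was lower, with 33.5 CPM in ET 10 d, against 46.6 CPM in E0 10 d (log2 fold change -0.44, adjusted p = 0.0174), and BAT1 had 13.9 CPM in ET 10 d, against 23.8 CPM in E0 10 d (adjusted p = 0.0508). The largest increase was that of STP11 beside TT16, with 1 CPM in ET 10 d, against 0.129 CPM in E0 10 d (log2 fold change 3.14, adjusted p = 0.00475).

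TT16 and DELTA-VPE are known from the seed coat, and 92 markers of seed and reproductive tissues were therefore read beside the members. The seed coat list was divided. Of its 12 genes outside the set, 7 averaged at most 0.5 CPM in ET 10 d, 7 in EA 10 d and 6 in E0 10 d. In ET 10 d BAN, an enzyme of proanthocyanidin synthesis in the endothelium, averaged 0.0317 CPM. TT2 and TT1 had no count there, and TT10 and TT12 averaged 0.105 and 0.13 CPM. BAN was as low without TSA, at 0.0228 CPM in E0 10 d and 0.0175 CPM in EA 10 d. AHA10 averaged 2.87 CPM in ET 10 d and 2.23 CPM in E0 10 d, and MUM2 averaged 4.92 and 25 CPM. TT16 was the single member on any of the lists. The summed level of the 12 other seed coat genes was 473 to 549 CPM in ET 10 d, 858 to 1017 CPM in EA 10 d and 289 to 338 CPM in E0 10 d, nearly all of it from SBT1.7, a mucilage-related protease, and MUM4. Of 7 that passed the filter, 2 (SBT1.7 and STK) were called higher in ET 10 d than in E0 10 d (18% of all genes) and 3 lower (20%), and 2 were higher (24.2%) and 4 lower (25%) in EA 10 d.

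The lists of the anther and of both gametophytes were low on every medium. The 18 tapetum genes summed to 7.25 to 9.22 CPM in ET 10 d, 9.42 to 9.93 CPM in EA 10 d and 8.92 to 10.3 CPM in E0 10 d, of which LAP6 and DRL1 gave most. Of 6 tested, 1 was called higher in ET 10 d than in E0 10 d (18% of all genes) and 0 lower (20%). This was A6, at 0.328 CPM, against 0.00571 CPM in E0 10 d (edgeR adjusted p = 0.0062). Against E0 of the same day, 0 were higher (23.8% of all genes) and 4 lower (21.5%) in ET 5 d. In EA 10 d 0 were higher (24.2%) and 3 lower (25%). The 9 pollen and sperm genes summed to 2.97 to 4.13 CPM in ET 10 d, 5.68 to 10.6 CPM in EA 10 d and 1.15 to 1.57 CPM in E0 10 d, and GEX1 was called higher on both media, with HAP2 in EA 10 d as well. The 8 female gametophyte genes summed to 5.79 to 8.89 CPM in ET 10 d, 8.64 to 12.5 CPM in EA 10 d and 5.48 to 7.63 CPM in E0 10 d, mainly from AGL80, which averaged 6.77 CPM in ET 10 d and 6.31 CPM in E0 10 d. AGL80 and EC1.5, the tested genes of this list, were not called in ET 10 d (adjusted p = 0.642 and 0.267), and both were higher in EA 10 d than in E0 10 d (0.0264 and 0.0242).

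The endosperm list was divided, with some genes higher on TSA, others lower and most near 0. Of the 30 endosperm genes 12 passed the filter, 8 were called higher in ET 10 d than in E0 10 d (18% of all genes) and 3 lower (20%), and 1 was higher (24.2% of all genes) and 9 lower (25%) in EA 10 d than in E0 10 d. The list summed to 1482 to 3514 CPM in ET 10 d, 20.2 to 81.1 CPM in EA 10 d and 250 to 657 CPM in E0 10 d, mostly from EPR1, an extensin-like gene of the endosperm. MYB118, a regulator of endosperm maturation, had 47.2, 46.9 and 45.3 CPM in ET 10 d, 26.1, 19.7 and 15.6 CPM in ET 5 d and at most 1.6 CPM in any library without TSA. HDG3, a homeodomain factor of the endosperm, had 147, 198 and 193 CPM in ET 10 d, and its log2 fold change against E0 10 d was 5.91 ± 0.58 (SE, edgeR adjusted p = 1.27e-06). RR21, a type B response regulator, had 181, 238 and 170 CPM in ET 10 d and a log2 fold change of 6.15 ± 0.61 (adjusted p = 3.33e-06). YUC10 differed in time, with 55.7, 57.7 and 38.6 CPM in ET 10 d and 1.08, 0.311 and 0.442 CPM in ET 5 d. It was nevertheless called higher on day 5 as well, with a log2 fold change of 4.35 ± 1.19 against E0 5 d (adjusted p = 0.00709). The 3 genes called lower in ET 10 d than in E0 10 d were IKU2, a receptor kinase of endosperm growth (log2 fold change -2.39, adjusted p = 0.00296), NCED9, an enzyme of abscisic acid synthesis (-1.03, adjusted p = 0.00721), and MEA (-4.05, adjusted p = 0.00169). The regulators MINI3, MYB115, FWA, HDG8 and RR19 did not pass the filter, and the highest of them in ET 10 d, MINI3, averaged 0.121 CPM. The imprinted and early genes PHE1, PHE2, FIS2, AGL36, AGL90, AGL28 and TAR1 had no count in ET 10 d, which allows up to 0.0327 CPM over the group, MEA averaged 0.0347 CPM, and AGL62 was at 1.08 CPM in ET 10 d and 1.02 CPM in E0 10 d.

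**Figure D4:**
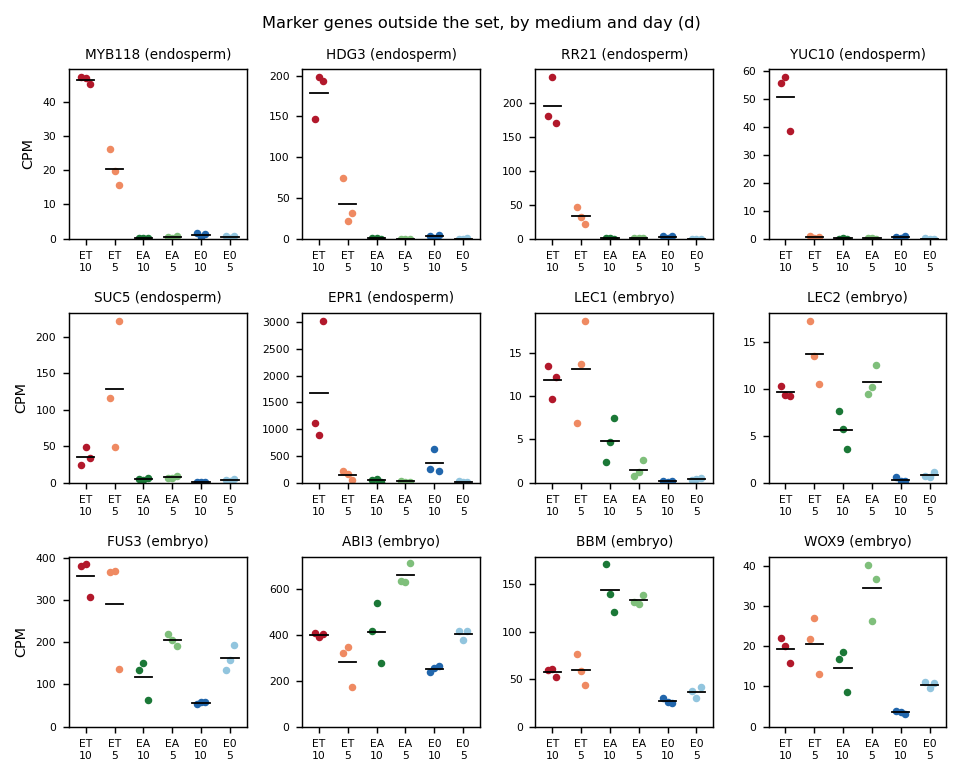
CPM (vertical, linear from 0) of 6 endosperm and 6 embryo marker genes outside the set, by medium and day (horizontal), 1 point per library and a bar at the mean of 3. The 6 endosperm genes drawn are those called higher than E0 in both ET 5 d and ET 10 d. They do not stand for the list of 30, since IKU2, NCED9 and MEA, called lower in ET 10 d, and the genes near 0 are not drawn. On these axes MYB118, HDG3, RR21 and YUC10 lie low in all libraries without TSA, although in E0 10 d HDG3 reached 4.39 CPM and RR21 3.94 CPM. The embryo regulators FUS3, ABI3 and BBM are read on all 3 media.

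The explants' own identity was read in the embryo regulators. All 14 passed the filter, 13 were called higher in ET 10 d than in E0 10 d (18% of all genes) and none lower (0, with 20% of all genes), and in EA 10 d 10 were higher (24.2%) and 1, GSO2, was lower (log2 fold change -0.43, adjusted p = 0.0414). They summed to 1185 to 1253 CPM in ET 10 d, 761 to 1177 CPM in EA 10 d and 500 to 577 CPM in E0 10 d. On day 5 the sums were 732 to 1185 CPM in ET 5 d, 1514 to 1628 CPM in EA 5 d and 1008 to 1155 CPM in E0 5 d. The day-10 calls are thus set against an E0 level that was itself lower than on day 5. LEC1, a master regulator of embryogenesis, had 13.5, 9.75 and 12.3 CPM in ET 10 d, 2.43, 4.72 and 7.45 CPM in EA 10 d and 0.24, 0.0642 and 0.188 CPM in E0 10 d. LEC1 was thus read with both inducers, whereas the rule held the 22 members to a mean of at most 0.5 CPM in each group without TSA. Whether the cells behind these markers contribute to the levels of the members was not tested. On day 5, 5 of the 14 were higher in ET than in E0 (23.8% of all genes) and 3 lower (21.5%). Over the 43 tested genes of all lists, set against the E0 libraries of that day, 25 were higher and 6 lower in ET 10 d (18% and 20% of all genes), 13 higher and 14 lower in ET 5 d (23.8% and 21.5%), and 17 higher and 17 lower in EA 10 d (24.2% and 25%).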

How the data were processed

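RNA-seq reads of 18 libraries were processed by the authors with bcl2fastq, Sickle, SortMeRNA and STAR (TAIR10). The file the authors deposited holds raw gene counts from unique alignments, not normalized. The strand setting and annotation release are not given in the sources used here. CPM was computed on library totals. Floors are 3 counts over a group, and intervals are exact binomial and cover counting error only. Tests used edgeR 4.0.16 in R 4.3.3 (filterByExpr on the 6 groups, TMM, 1 mean per group, quasi-likelihood F test, Benjamini-Hochberg adjustment), tested on simulated data. Alternatives used DESeq2 1.42.0, other scalings, filters and fits, and each library left out. The members and gene lists were chosen with earlier results of these data known, and the lists come from general knowledge. Every member could be named, with values per ET library for the 12 highest in ET 10 d, the 8 highest in ET 5 d, list members and genes nearest the limits. Genes outside the members were named from the lists, and the neighbours and the library b pattern were chosen after values were seen. A further 2 genes that met the thresholds are not reported here. Upstream sequence and positions come from RefSeq TAIR10.1.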

Additional observations from a re-analysis of the deposited data

Results flagged for a closer look

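In 4 list genes every ET library lay above every E0 library on day 10 and below every E0 library on day 5, and the difference between the days was not tested. WOX2, an embryo patterning factor, had a log2 fold change of 2.58 in ET 10 d against E0 10 d (edgeR adjusted p = 0.000468) and of -3.12 in ET 5 d against E0 5 d (0.000384). ABI3 had 0.70 in ET 10 d (adjusted p = 0.0113) and -0.51 in ET 5 d (0.0498). GSO2 had 0.58 in ET 10 d (adjusted p = 0.0112) and -0.33 in ET 5 d, where it did not pass the test (0.117). A6 had 4.79 in ET 10 d (adjusted p = 0.0062) and -6.19 in ET 5 d (0.00823), where the ET 5 d libraries held no count and the fitted value depends on the fit.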

How the results depend on the processing

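The number of genes that met the rule was 24 on TMM-scaled CPM, 12 with a limit of 10 CPM in ET 10 d, 14 with a limit of 0.25 CPM in the groups without TSA, and 12 when every library had to meet the limits. With 1 library left out it ranged from 20 to 24. The members called higher numbered 12 to 17 over the alternatives against E0 5 d and 13 to 17 against EA 5 d, and with 1 library left out 13 to 16 in both. The number of members tested was 13 in the fits of 6 libraries and 21 or 22 in the others. List genes called higher numbered 10 to 13 in ET 5 d, 23 to 26 in ET 10 d and 13 to 19 in EA 10 d, and neighbours 6 to 9. The direction turned for AT5G22430 (log2 fold change 3.36) and MBP2 (0.99) without E0 5 d replicate a, and for MBP2 (0.19) without ET 5 d replicate a. All of these were far from the threshold (adjusted p of 0.429 to 0.929). For LCR62 the value was 0.00 without ET 5 d replicate c, which held its only count in ET 5 d and E0 5 d, and has no direction. With 1 library left out these fold changes ranged from -1.01 to 3.36 for AT5G22430, from -0.44 to 0.99 for MBP2 and from 0.00 to 2.77 for LCR62. The cause was not tested. The letters a, b and c were not treated as pairs in the main fit. Same-letter correlations of the deviations reached from -0.135 to 0.188 and in no comparison were all above 0.1. Those of different letters reached from -0.25 to 0.236. With 3 libraries per group these values cannot exclude a pairing. With a replicate block 17 members were called higher against E0 5 d, 17 against EA 5 d, 12, 25 and 17 list genes in ET 5 d, ET 10 d and EA 10 d, and 9 neighbours. Of the tested members with under 20 counts in ET 5 d, TT16 (17 counts) and AT1G72110 (13 counts) were called against E0 5 d.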
